A study of Mus musculus with 6 samples.

Results

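The genes described here are 8 enzymes of haem biosynthesis, Alas1, Alas2, Alad, Uros, Urod, Cpox, Ppox and Fech, in the order in which they act. All probe sets whose platform gene symbol equals 1 of these names were taken, which gave 19 of the 45101 probe sets of the array. RNA came from whole spleens of 3 Balb/c mice given 10 mg of PFOS (perfluorooctane sulfonate, a persistent fluorinated surfactant) per kg body weight daily by stomach tube for 3 weeks, and of 3 untreated Balb/c mice. The labels give an age of 6 to 8 weeks for all 6 mice, and each spleen was read on 1 Affymetrix Mouse430_2 array. Each array is labelled a biological replicate, and no vehicle is mentioned for the untreated mice.

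All 6 mice are labelled female, but Xist, the RNA of the inactive X chromosome, was at 5.75 to 5.86 in PFOS and at 5.62 to 5.86 in control spleens (log2 values). The Y-linked gene Eif2s3y was at 9.76 to 9.91 in PFOS and at 9.62 to 9.70 in control spleens. All 6 arrays therefore go against the label, and no result could be given without them. Markers of spleen were present in both groups: the B cell gene Ms4a1 averaged 12.75 in PFOS and 12.29 in control spleens, and the red pulp macrophage gene Spic 9.83 and 9.26. Markers of hepatocytes differed strongly, and all 14 measured were called lower in PFOS, against 26.0% of all genes tested. For 10 of them the PFOS mean lay under the floor of the filter on low values (5.62), so they passed it through the control arrays. Alb averaged 5.87 in PFOS and 11.03 in control spleens, Serpina1c 8.14 and 11.24, and Hpx 5.19 and 9.70. The source of these transcripts in control spleens was not tested. Over the 13101 genes tested, arrays of 1 group correlated at 0.9985 to 0.9991 and arrays of different groups at 0.969 to 0.970. The p-values measure the spread between these arrays, which may be technical. Arrays were normalized to a common distribution, so every change is relative to the other transcripts of the same array.

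Haem is built from glycine and succinyl-CoA along a chain of enzymes that begins and ends in the mitochondrion and passes through the cytosol between. The first enzyme, 5-aminolevulinate synthase, exists as Alas1, used by all tissues and by the liver for its cytochromes, and Alas2, the form of red cell precursors. Alad, Uros and Urod act in the cytosol, where they make porphobilinogen and process the first tetrapyrrole rings. Cpox and Ppox oxidize the ring inside the mitochondrion, and Fech inserts the iron. The mouse spleen, unlike the adult human spleen, makes red cells throughout life, and red cell precursors are its heaviest users of this pathway.

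The stretches of 250 bases just upstream of the annotated start are shown for 4 of the enzymes. They are the isozymes Alas2 and Alas1, which catalyse the same step, and Cpox and Alad, which both fell more than 2-fold. The sequences are from RefSeq (GRCm38.p6), which gave 10 such windows for 7 of the 8 enzymes. The Alas2 window is chrX:150547167-150547416 on the plus strand, that of Cpox chr16:58669958-58670207 on the plus strand, that of Alad chr4:62520064-62520313 on the minus strand and that of Alas1 chr9:106247955-106248204 on the minus strand. Each is printed 5′ to 3′ in the direction of transcription. Capitals mark every match to GATAA, the core bound by GATA factors such as Gata1, and to CACCC, the core bound by Klf factors such as Klf1, on either strand.
Alas2: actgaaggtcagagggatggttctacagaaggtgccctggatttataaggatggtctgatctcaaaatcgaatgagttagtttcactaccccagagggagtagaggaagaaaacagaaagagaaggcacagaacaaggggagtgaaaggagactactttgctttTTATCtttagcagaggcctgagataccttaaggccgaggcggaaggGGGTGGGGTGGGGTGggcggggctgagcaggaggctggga
Cpox: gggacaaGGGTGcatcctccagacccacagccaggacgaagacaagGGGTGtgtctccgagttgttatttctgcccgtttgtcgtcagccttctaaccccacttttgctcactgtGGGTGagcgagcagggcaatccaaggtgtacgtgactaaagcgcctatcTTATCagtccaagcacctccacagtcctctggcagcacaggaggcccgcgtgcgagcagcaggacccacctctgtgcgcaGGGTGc
Alad: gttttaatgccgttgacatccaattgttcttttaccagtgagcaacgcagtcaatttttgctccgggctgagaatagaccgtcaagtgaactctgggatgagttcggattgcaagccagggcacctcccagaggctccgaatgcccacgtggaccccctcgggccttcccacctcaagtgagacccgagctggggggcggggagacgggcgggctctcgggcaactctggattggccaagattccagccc
Alas1: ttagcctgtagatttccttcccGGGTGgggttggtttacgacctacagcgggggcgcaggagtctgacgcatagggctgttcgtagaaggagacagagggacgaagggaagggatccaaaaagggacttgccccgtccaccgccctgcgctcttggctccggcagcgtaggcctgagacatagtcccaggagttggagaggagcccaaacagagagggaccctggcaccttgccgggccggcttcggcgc

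The reverse form of GATAA lay 86 to 82 bases before the start in the windows of both Alas2 and Cpox. Alas2 had 3 matches to CACCC in reverse form, within the 40 bases before the start, and Cpox had 4 spread over its window. The Alad window shown had neither motif, and the Alas1 window shown had 1 match to CACCC. Over all 10 windows of the enzymes, 3 held GATAA and 5 held CACCC. Among all 32851 windows of the same length in the RefSeq table, 22.6% held GATAA and 52.0% held CACCC on either strand. RefSeq gives Alad and Alas1 a second start, and the second window of each held 1 match to CACCC and none to GATAA. These are matches of letters in short windows, and binding there was not measured.

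PFOS spleens had less RNA of 7 of the 8 enzymes, each read by the probe set that stands for it, and 5 of these were at least 2-fold lower. That count was 4 with the mean over probe sets, and 2 with arrays centred on bacterial transcripts that serve as labelling spikes. In these probe sets the fall was largest for Alad and Urod, the cytosolic enzymes that form porphobilinogen and decarboxylate uroporphyrinogen. Among the called genes it was smallest for Alas2, which was called higher, at 0.15, when arrays were centred on those transcripts. Without probe sets ending in _s_at, _x_at or _a_at, the fall was largest for Cpox (-1.41), Fech (-1.38) and Uros (-1.37), and Alad was at -0.88. Alas1 was not called in either direction. Limma called 66.6% of all genes tested at an adjusted p under 0.05, 26.0% lower and 40.6% higher in PFOS, and 2.92% were called and at least 2-fold lower. The median change of the 8 enzymes was -1.22 on the log2 scale, beside 0.05 for all genes. Fewer red cell precursors and less RNA per precursor cannot be told apart in RNA from whole spleen. All 14 measured hepatocyte markers were lower as well, with a median of -3.64, and 10 of their PFOS means lay under the filter floor. The part of hepatocyte transcripts in the changes of the enzymes was not tested.

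**Figure D1:**
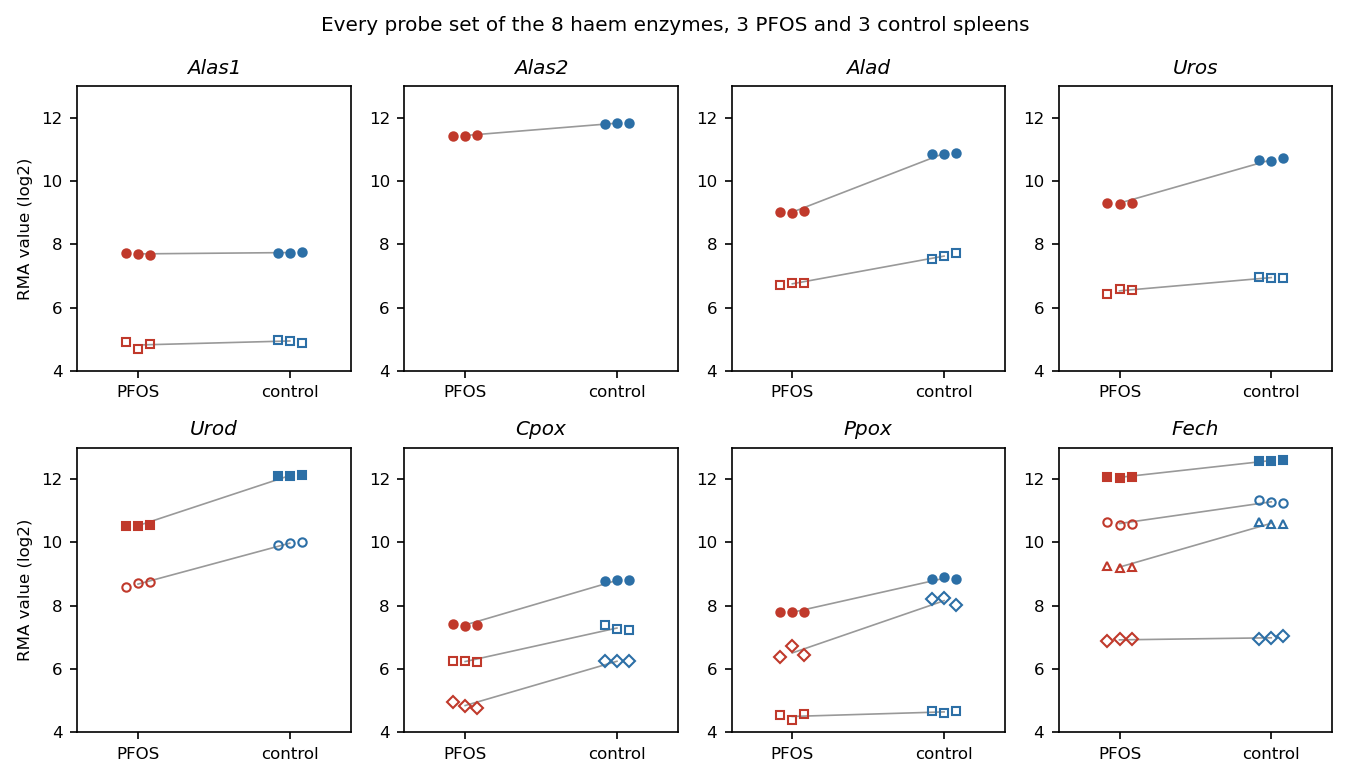
RMA log2 value of every probe set of the 8 enzymes in 3 PFOS arrays (red, left) and 3 control arrays (blue, right). Filled symbols mark the probe set that stands for the gene, open symbols the others, each shape is 1 probe set, and grey lines join group means. The PFOS arrays of Alad sit near 9.0, below control arrays near 10.9, while those of Alas1 overlap the control arrays.

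The isozymes of the first step differed. The Alas1 probe set that stands for the gene (1424126_at) read 7.74, 7.68 and 7.67 in PFOS, against 7.72, 7.73 and 7.76 in control spleens. The groups overlapped, and the change was -0.04 ± 0.03 (SE; limma adjusted p = 0.211). Alas2 has 1 probe set (1451675_a_at), which read 11.42, 11.43 and 11.47 in PFOS, against 11.81, 11.83 and 11.83 in control spleens. No PFOS array reached the lowest control array, and Alas2 fell by 0.39 on the log2 scale (SE 0.02, limma adjusted p = 7.97e-06), or 1.31-fold, a direction that turned when arrays were centred on the bacterial transcripts. Within each array, the gap between Alas1 and Alas2 differed between the groups by 0.35 (exact two-sided permutation p = 0.1, the smallest that 3 arrays against 3 allow).

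The cytosolic enzymes Alad, Uros and Urod were 3.62-fold, 2.58-fold and 3.00-fold lower in the probe sets that stand for them, and 1.83-fold, 1.34-fold and 2.45-fold lower in their other probe sets. Alad, which joins aminolevulinate molecules into porphobilinogen, read 9.01, 8.99 and 9.04 in PFOS, against 10.86, 10.86 and 10.89 in control spleens. That is 27.6% of the control level. Alad changed by -1.86 ± 0.02 on the log2 scale (SE; limma adjusted p = 7.31e-09), and 58 of the 13101 genes fell further. Uros, which closes the linear tetrapyrrole into a ring, read 9.31, 9.28 and 9.31 in PFOS, against 10.67, 10.62 and 10.72 in control spleens. Its change was -1.37 ± 0.03 (SE; limma adjusted p = 3.94e-08), and 196 genes fell further. Urod read 10.53, 10.52 and 10.54 in PFOS, against 12.10, 12.12 and 12.12 in control spleens. Its change was -1.58 ± 0.02 (SE; limma adjusted p = 9.62e-09), with 124 genes falling further. The groups did not overlap for any probe set of these enzymes.

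The mitochondrial enzymes fell by unequal amounts. Cpox, coproporphyrinogen oxidase, read 7.41, 7.37 and 7.40 in PFOS, against 8.79, 8.80 and 8.82 in control spleens, a change of -1.41 ± 0.02 (SE; limma adjusted p = 1.28e-08). Ppox, protoporphyrinogen oxidase, read 7.79, 7.79 and 7.80 in PFOS, against 8.86, 8.91 and 8.84 in control spleens, a change of -1.08 ± 0.03 (SE; limma adjusted p = 5.05e-08). Fech, ferrochelatase, read 12.06, 12.05 and 12.06 in PFOS, against 12.59 in each control spleen. It fell by 0.53 (SE 0.02, limma adjusted p = 8.85e-07), or 1.45-fold, in the probe set that stands for it, and was at 0.00302 with no call when arrays were centred on the bacterial transcripts. Of the 13101 genes, 859 fell further than Fech, 346 further than Ppox and 181 further than Cpox. The groups did not overlap in the probe sets that stand for these mitochondrial enzymes.

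The log2 changes in order were those of Alad, Urod, Cpox, Uros, Ppox, Fech, Alas2 and Alas1. All 28 pairs of enzymes were compared by their within-array difference, and the arrays of the groups did not overlap for 27 of them. The exception was Uros against Cpox, whose changes differed by 0.04 (exact two-sided permutation p = 0.2, and 0.2 after adjustment over the 28 pairs). The other pairs each had an exact permutation p = 0.1, the smallest possible (adjusted p = 0.104). When each enzyme was set against every other tested gene, 94.9% of such pairs did not overlap either, so a gap between 2 genes is common in these arrays. The order also rests on the probe set chosen: with the mean over the probe sets that passed the filter, the changes were -1.44 for Urod, -1.37 for Alad, -1.36 for Ppox, -1.23 for Cpox, -0.89 for Uros, -0.67 for Fech, -0.39 for Alas2 and -0.04 for Alas1.

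The probe sets of 1 gene did not always show the same change. In a fit of all 45037 non-control probe sets, 16 of the 19 were called lower and 0 higher. Of all probe sets 19.3% were called lower, and 22289 were called in either direction. At least 2-fold lower were 10 of the 19. The share at that fold was taken only over genes, of which 2.92% were called and at least 2-fold lower. The 3 PFOS arrays were all lower than the 3 control arrays for 16 of the 19, against 22.9% of all probe sets. The 3 not called were both Alas1 probe sets, at -0.04 and -0.13, and 1 of Fech. Of the 19, 16 had a mean above the filter floor of 5.62, and 1 probe set each of Alas1, Cpox and Ppox lay below it.

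**Figure D2:**
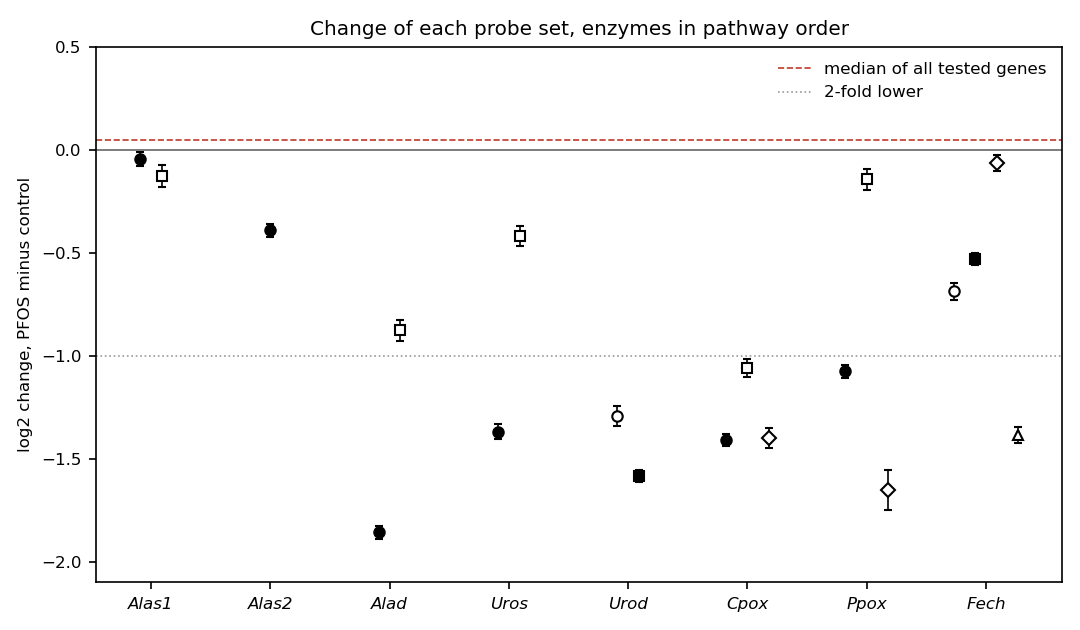
Log2 change (PFOS minus control, with limma's SE) of each of the 19 probe sets, with the enzymes in pathway order from left to right. Filled symbols stand for the gene and the symbol shapes are those of the plot of values. The dashed line is the median of all tested genes (0.05) and the dotted line a 2-fold fall. The probe sets of Fech spread from -1.38 to -0.07, and both of Alas1 lie near 0. With arrays centred on the bacterial transcripts, the probe sets that stand for Alas1, Alas2 and Fech would lie at 0.49, 0.15 and 0.00302.

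The 4 probe sets of Fech changed by unequal amounts. The probe set 1449181_at read 9.25, 9.19 and 9.23 in PFOS, against 10.66, 10.58 and 10.58 in control spleens, a change of -1.38 ± 0.04 (SE; limma adjusted p = 1.78e-07). The probe set 1427696_at read 6.89, 6.94 and 6.94 in PFOS, against 6.94, 6.98 and 7.05 in control spleens, where the groups met and the change was -0.07 ± 0.04 (SE; limma adjusted p = 0.202). Between them lay 1418698_a_at at -0.69 and 1418699_s_at at -0.53, the probe set that stands for the gene. The changes of 1427696_at and 1449181_at differed by 1.32 within arrays (exact two-sided permutation p = 0.1, the smallest possible). Which Fech transcripts each probe set reads was not examined.

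Alad, Uros and Ppox also had a probe set with a smaller change. For Alad, 1457306_at read 6.72, 6.77 and 6.77 in PFOS, against 7.53, 7.62 and 7.73 in control spleens, a change of -0.88. Without probe sets whose names end in _s_at, _x_at or _a_at, which can read several transcripts, that value stands for Alad. Alad then had the smallest fall of the called enzymes, -1.38 stands for Fech, and Alas2 has no probe set left. For Uros, 1440535_at read 6.44, 6.60 and 6.56 in PFOS, against 6.97, 6.94 and 6.94 in control spleens, a change of -0.42 ± 0.05 (SE). For Ppox, 1441862_at lay below the filter floor in both groups, at 4.40 to 4.57 in PFOS and 4.61 to 4.67 in control spleens, while 1448065_at changed by -1.65 ± 0.10 (SE). The probe sets of Cpox and Urod were closer together, from -1.41 to -1.06 for Cpox and from -1.58 to -1.29 for Urod.

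The directions of Alas1, Alas2 and Fech, in the probe sets that stand for them, depend on how arrays are scaled. The bacterial transcripts (24 probe sets, picked by name as labelling spikes) averaged 6.09 to 6.14 in PFOS and 6.64 to 6.65 in control spleens. Array medians over all probe sets were 6.16 to 6.18 in PFOS and 6.16 to 6.17 in control spleens. The spikes thus read near the array median, and whether they were added to these samples was not examined. When arrays were centred on these spikes, the median change of all genes became 0.59, a shift of 0.53. Of the called genes 94.3% were then higher, where 61.0% were in the deposited values. In that scaling Alas1 was at 0.49 and Alas2 at 0.15, both called higher, and Fech was at 0.00302 with no call (limma adjusted p = 0.92). All 3 changes stayed under that median. The Fech probe sets 1449181_at and 1418698_a_at were at -0.85 and -0.15 with that centring. Alad (-1.32), Urod (-1.05), Cpox (-0.88), Uros (-0.83) and Ppox (-0.54) were still called lower in the probe sets that stand for them. The Uros probe set 1440535_at was at 0.12 and the Ppox probe set 1441862_at, under the filter floor, at 0.39. Their remaining probe sets were negative, with 1457306_at of Alad at -0.34. Of the 19 probe sets 12 were then called lower, against 16, while 43819 of all 45037 were called in either direction. With arrays centred on ribosomal protein genes, all 8 enzymes were called lower, Alas1 at -0.11 (limma adjusted p = 0.0113), and 44.9% of the called genes were higher.

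Most genes that feed the pathway with substrates or move its intermediates were lower too in the deposited values. Of 20 such genes 19 were measured, of which 15 were lower, 3 higher and 1 not called, with a median change of -0.38. With arrays centred on the bacterial transcripts, 8 were lower and 10 higher. That centring called 723 of the 13101 genes lower and 12065 higher, which is the background for the lists below too. Abcb10, a mitochondrial transporter that red cell precursors need for haem synthesis, fell by 1.76 (SE 0.04). Tfrc, the transferrin receptor through which precursors take up iron, read 11.40, 11.36 and 11.38 in PFOS, against 12.97, 12.96 and 12.97 in control spleens. Its change was -1.59 ± 0.02 (SE; limma adjusted p = 1e-08). Slc25a38, the mitochondrial glycine carrier of red cell precursors, fell by 1.16 and Tmem14c, which carries protoporphyrinogen into the mitochondrion, by 1.07. Sucla2, a subunit of succinyl-CoA synthetase, rose by 0.16, and the iron carrier Slc25a28 rose by 0.17.

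Iron-sulfur cluster genes, on which ferrochelatase depends because it holds such a cluster, were mostly lower, but 2 were lower and 8 higher when arrays were centred on the bacterial transcripts. Of 16 listed 12 were measured, with 8 lower, 1 higher and 3 not called, and a median change of -0.36. Glrx5, the mitochondrial glutaredoxin of cluster transfer, read 11.94, 11.97 and 11.96 in PFOS, against 12.95, 12.95 and 12.96 in control spleens, a change of -0.99 ± 0.02 (SE). Bola3 fell by 0.52, Isca2 by 0.49 and Isca1 by 0.40, all of them factors of cluster assembly whose changes are above 0 with that centring. Nfu1, a cluster carrier, rose by 0.30.

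**Figure D3:**
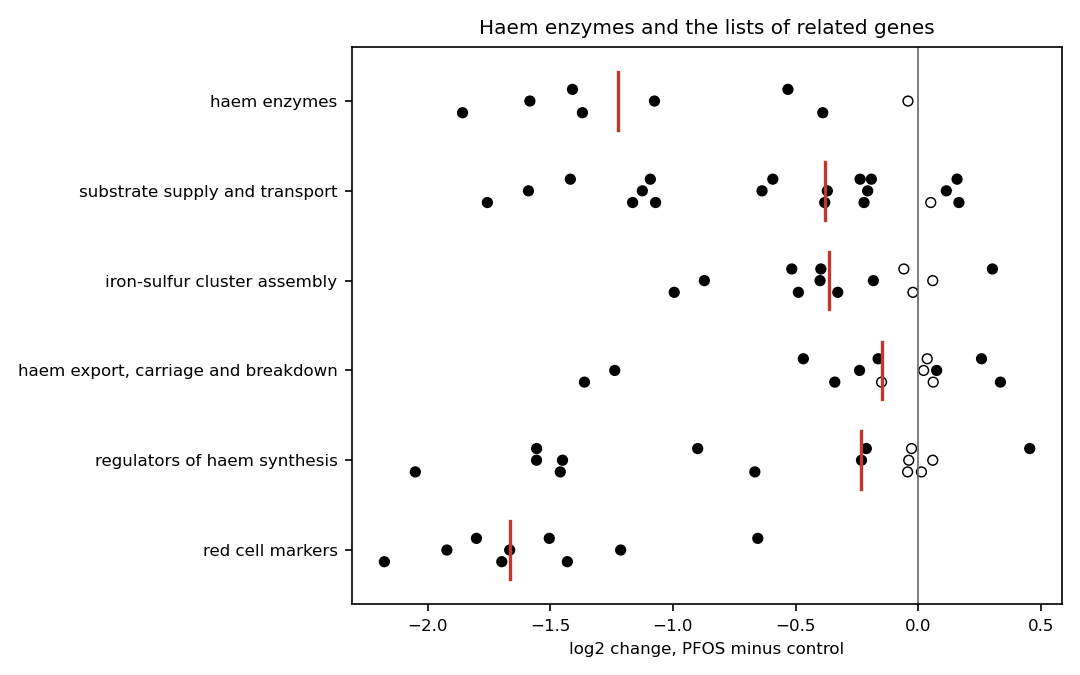
Log2 change (PFOS minus control) of each measured gene in the 8 haem enzymes and 5 lists of related genes. Each point is 1 gene, filled where limma called it, and the red line is the list's median. Medians run from -1.67 for red cell markers and -1.22 for the enzymes to -0.15 for haem export, carriage and breakdown. With arrays centred on the bacterial transcripts, every change is 0.53 higher.

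Genes that export, carry or break down haem moved in both directions. Of 13 measured, 6 were lower, 3 higher and 4 not called, with a median of -0.15, and with arrays centred on the bacterial transcripts 2 were lower and 10 higher. The biliverdin reductase Blvrb, abundant in red cells, fell by 1.24, and the exporter Abcg2, which carries porphyrins, fell by 1.36. Hebp1, a haem-binding protein, fell by 0.47, a change that is above 0 with that centring. Hmox2, the constitutive haem oxygenase, rose by 0.33 and Hebp2 by 0.26. Hmox1, the inducible haem oxygenase, read 9.22, 9.23 and 9.22 in PFOS, against 9.19, 9.16 and 9.21 in control spleens, which limma did not call (adjusted p = 0.218). It was singled out after its values were seen, for its role.

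Most regulators of haem synthesis that were called were lower in the deposited values. Of 17 listed 15 were measured, with 9 lower, 1 higher and 5 not called, and a median of -0.23. With arrays centred on the bacterial transcripts 7 were lower and 8 higher. Klf1, which activates many red cell genes, read 9.29, 9.30 and 9.31 in PFOS, against 11.34, 11.36 and 11.35 in control spleens. Its change was -2.05 ± 0.02 (SE; limma adjusted p = 4.17e-09). Gata1, the GATA factor of red cell precursors, fell by 1.46, and its cofactor Zfpm1 by 1.45. Tal1 and Nfe2, further red cell factors, fell by 1.56 each. Foxo1 rose by 0.45. The iron sensors Aco1 and Ireb2, whose proteins bind an element in the Alas2 messenger RNA, were at -0.04 and -0.03 and not called. They were singled out after their values were seen, for that binding.

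Differences within an array do not depend on how arrays are centred, and set against red cell markers in the same array the enzymes took different positions. The mean of 9 markers of red cell precursors, among them Slc4a1, Hemgn and Ermap, was at 9.38 to 9.40 in PFOS and at 10.93 to 10.98 in control spleens, a change of -1.56. Relative to it, Alas1 was higher in PFOS by 1.52, Alas2 by 1.17, Fech by 1.03, Ppox by 0.49, Uros by 0.19 and Cpox by 0.15. Alad was lower by 0.29, and Urod differed by -0.02 with overlapping arrays (exact two-sided permutation p = 0.5). For the other enzymes p was 0.1, the smallest possible (adjusted p = 0.114 over 24 comparisons). The arrays did not overlap in 21 of the 24 comparisons of an enzyme with the marker mean, Gata1 or Klf1, which is no more than the 94.9% found against any tested gene. The other exceptions were Uros and Cpox against Gata1, whose changes differed by 0.09 and 0.05. These positions depend on the probe set. With the mean over probe sets, Alad was higher than the markers by 0.18, and Urod by 0.11 without overlap. Fech was then higher by 0.88, Uros by 0.65, Cpox by 0.31 and Ppox by 0.18, with Alas2 at 1.16. The Fech probe set 1449181_at alone was 0.18 higher than the marker mean.

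**Figure D4:**
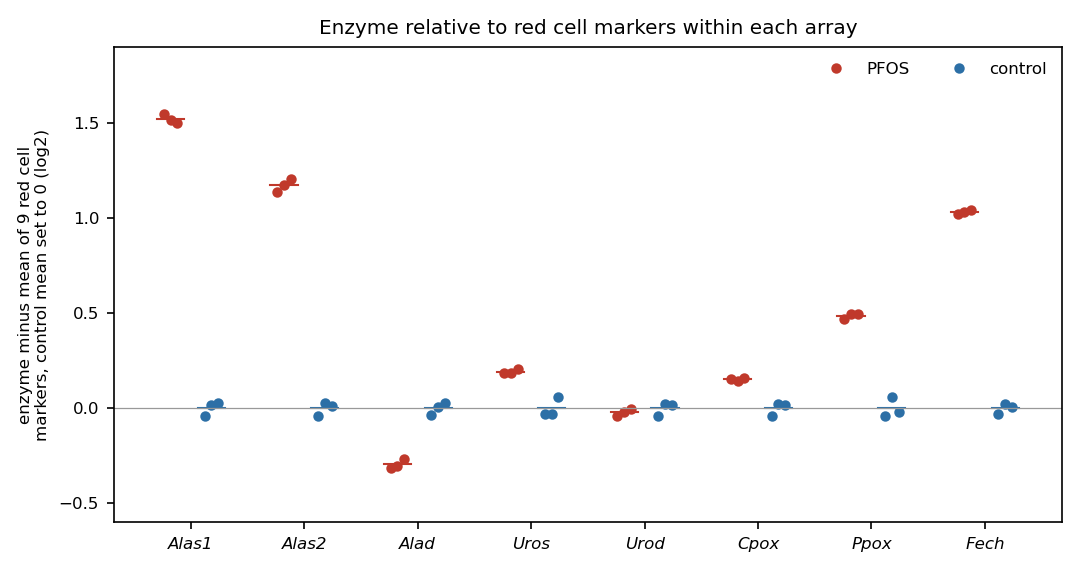
Log2 value of each enzyme minus the mean of 9 red cell markers in the same array, with the control mean of that difference set to 0. PFOS arrays are red and to the left, control arrays blue and to the right, and lines are group means. Alas1, Alas2 and Fech lie 1.52, 1.17 and 1.03 higher in PFOS, and Urod lies with its control arrays. Each enzyme is read by the probe set that stands for it, and with the mean over probe sets Alad lies 0.18 higher in PFOS.

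Markers of other cells moved in the same arrays. All 9 measured red cell markers of 16 listed were lower, with a median of -1.67, and their summed linear values ran from 13683 to 14020 in PFOS and from 31289 to 32136 in control spleens. The summed values of the 8 enzymes ran from 10175 to 10349 in PFOS and from 18751 to 18991 in control spleens. All 12 measured proliferation markers were lower (median -1.45), with Mki67 at -1.48, Rrm2 at -1.68 and Top2a at -1.31. All 14 measured hepatocyte markers were lower (median -3.64), with sums of 815 to 899 in PFOS and 9378 to 9541 in control spleens, and 10 of the 14 PFOS means lay under the filter floor. Hepatocytes make haem too, with Alas1 as the first enzyme. Lymphocyte markers were higher in 10 of 10 cases (median 0.51) and red pulp macrophage markers in 6 of 9 (median 0.19). Neutrophil markers were lower in 6 of 7 cases (median -0.74), and in 4 with arrays centred on the bacterial transcripts. Megakaryocyte markers were lower in 2 and higher in 3 of 6 cases (median 0.02). With that centring, which called 12065 of the 13101 genes higher, 6 were higher. Spleen stroma markers were higher in 5 of 6 cases (median 0.23). The part of these cell types in the changes of the enzymes was not tested.

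The genes whose 6 values lay closest to those of an enzyme, once each gene's control mean was subtracted, were looked up for Alas2, Alas1 and Alad. Nearest to Alad was Ank1, which encodes a red cell membrane ankyrin, at -1.85 with a root mean square difference of 0.011 on the log2 scale over 6 arrays. It was followed by the cyclin Ccnb2 (0.032) and the carbonic anhydrase Car3 (0.033). Nearest to Alas2 were Srrm2 (0.012), Dynll1 (0.015) and Golm1 (0.015), with changes from -0.39 to -0.38. Nearest to Alas1 were Cdc73 (0.011), Dip2a (0.011) and Auts2 (0.012), none of them called. With 2 groups of tight arrays this measure picks out genes of nearly equal change, whatever their function.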

How the data were processed

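The deposited values are log2 values that the authors made with RMA, a method named in the submitters' processing notes. It subtracts background, brings the arrays to 1 distribution and summarizes the probes of a probe set. Its version is not given in the sources used here. Total RNA (6 ug per array) was labelled with biotin, per the labels' protocols.

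Of 45101 probe sets, 64 were array controls, 34945 had 1 gene symbol, 932 several and 9160 none in the platform annotation. Probe sets without exactly 1 symbol, and those with a mean under the 40th percentile (5.62), were left out. The probe set with the highest mean stood for its gene. Groups were tested as PFOS minus control in limma 3.58.1 (lmFit and eBayes; R 4.3.3), with p-values adjusted by Benjamini-Hochberg over 13101 genes and, in a second fit without a filter, over 45037 probe sets, with calls at an adjusted p under 0.05. All 8 enzymes passed the filter. Single differences were compared with exact two-sided permutation tests. The number of arrays limits the precision. Alternatives were other filters, scalings, choices of probe set, limma priors and array weights, a replicate block, a stricter threshold and leaving out each array.

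The enzymes, gene lists and tests were chosen with earlier results of these data known. Named from each list of related genes were the 4 genes with the smallest p and up to 2 called the other way. Gata1 was named outside this rule, as a reference of the within-array comparisons. Cell markers were picked from the 3 with the highest control mean in each list, and not all of these are named. RefSeq symbols matched all 8 enzymes, and RefSeq (GRCm38.p6) served for names and promoter sequence.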

Additional observations from a re-analysis of the deposited data

How the results depend on the processing

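The count of 7 lower enzymes was 7 under 15 of the 18 alternatives, and 5 with arrays centred on the bacterial labelling spikes, 6 once probe sets ending in _s_at, _x_at or _a_at were left out, where Alas2 was not measured, and 8 with arrays centred on ribosomal protein genes. Leaving out each array gave 7 each time. With the replicate block, 9050 genes were called, against 8730 without it, and the enzymes' calls did not change. Same-numbered arrays of the 2 groups deviated together at correlations of 0.32, 0.14 and 0.097, so the numbers were not taken as pairs, and not every array correlated best with its own number.

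Centring on the labelling spikes turned Alas1 (0.49), Alas2 (0.15) and Fech (0.00302), gave 2 enzymes called higher, and gave 43819 probe sets called, against 22289. That setting adds 1 constant to every change. Alad, Uros, Urod, Cpox and Ppox were called lower under all 18 alternatives, with Alad between -1.92 and -0.88. The count of enzymes at least 2-fold lower was 5, and 2 with that centring and 4 with the mean over probe sets. It was also 5 without probe sets ending in _s_at, _x_at or _a_at, but with Fech (-1.38) in place of Alad (-0.88). Comparisons without overlap numbered 25 to 28 of 28 for enzyme pairs and 21 to 22 of 24 for red cell genes, near or below the 94.9% against any gene. The mean over probe sets gave Alad 0.18, against -0.29, relative to the red cell markers. The alternatives for the 2-fold count, and leaving out each array for the comparisons, were chosen after seeing the data. Detection calls were not used, so no probe set could be called absent.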
